A study of Homo sapiens with 18 samples.

Results

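DNA replication and S phase genes are described here as a list of 49 genes, found by symbol in a table of 26443 genes with values. The list was given as names and holds origin licensing factors, the replicative helicase and its activators, the sliding clamp and its loader, replicative polymerases, enzymes of nucleotide supply, enzymes that finish the lagging strand, the cyclin and E2F genes that drive S phase entry, and factors that act on new chromatin or stalled forks. No measured value was used to choose them, but they were named with earlier results of these data known. All 49 were in the table, and 48 passed the filter of at least 1 RPKM (reads scaled to transcript length and to the mapped reads of the library) in at least 3 of 18 libraries, as did 12900 genes in all. E2F8 did not pass it.

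The cells were LNCaP, an established androgen-responsive line from human prostate cancer, and total RNA was sequenced in 6 groups of 3 libraries. Lentiviruses were on the cells for 5 days. They carried shRNAs to both FOXA1 and HIF1A (shFOXA1+shHIF1A), an shRNA to FOXA1 (shFOXA1), an shRNA to HIF1A (shHIF1A) or the control shRNA (pGIPZ). For the groups shFOXA1+KC7F2 and pGIPZ+KC7F2, KC7F2, a small molecule that lowers HIF1A protein, was added at 40 µM for 24 h. All 6 groups, the controls among them, also received 100 µM CoCl2 for 24 h, which stabilises HIF1A protein, so each comparison below was made within CoCl2-treated cells. The labelled genotype of all groups was WT. The sources used here do not give the hairpins, the vehicle of KC7F2, or whether cells with a single knockdown carried a second virus. The labels speak of triplicates without saying whether these were separate cultures, so the p-values measure the spread between these libraries, which may be technical.

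FOXA1 is a forkhead transcription factor that opens chromatin for the androgen receptor in prostate cells, and HIF1A is the oxygen-regulated subunit of the main hypoxia transcription factor. In DNA replication, the origin recognition complex, CDC6 and CDT1 load the MCM helicase on DNA during G1. The helicase is switched on at S phase entry by CDC45, the GINS complex and MCM10, after which polymerases held by the PCNA clamp copy the strands. Most of these genes are transcribed in a wave before S phase by E2F factors once cyclin-dependent kinases have inactivated RB, so their RNA is commonly read as a sign of cycling cells. In bulk RNA, fewer cells in S phase and less RNA per cell cannot be told apart.

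The targeted genes were as labelled. FOXA1 averaged 34.1 ± 1.51 RPKM in shFOXA1 cells and 97.5 ± 22.7 RPKM in pGIPZ cells (SD, n = 3 each). HIF1A averaged 3.56 ± 0.642 RPKM in shHIF1A cells and 23.1 ± 7.91 RPKM in pGIPZ cells. HIF1A RNA was higher in shFOXA1 cells, at 89.9 ± 9.0 RPKM. With both shRNAs, HIF1A averaged 4.32 ± 0.245 RPKM, and FOXA1 stood at 64.5 ± 5.77 RPKM, a level between those of shFOXA1 and pGIPZ cells. KC7F2 acts on HIF1A protein, so HIF1A RNA is no check of it. The summed level of 9 LNCaP marker genes was 790 to 909 RPKM in shFOXA1+shHIF1A libraries, 1342 to 1452 in shFOXA1+KC7F2, 1311 to 1455 in shFOXA1, 979 to 1163 in shHIF1A, 1399 to 1533 in pGIPZ+KC7F2 and 1624 to 2100 in pGIPZ libraries. Markers of other cell types were low, with 3 endothelial markers summing to at most 2.72 RPKM. Summed fibroblast markers reached 9.13 RPKM in shHIF1A libraries, against at most 3.47 RPKM in pGIPZ libraries, and 3 leukocyte markers, carried by CD68, reached 19.3 RPKM in shFOXA1 libraries, against at most 7.68 RPKM in pGIPZ libraries. Their part in the results was not tested.

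Recovered sequencing depth was 3.26 to 12.1 M reads a library, and averaged 6.33 ± 1.28 M reads in shFOXA1 libraries and 11.1 ± 0.678 M reads in pGIPZ libraries (SD, n = 3 each). The lowest members rested on few reads, with a median over libraries of about 18.2 reads for POLE2, 24.7 for E2F2 and 31.2 for MCM10. MCM10 reached 1 RPKM in 6 libraries and E2F2 in 4, all of them pGIPZ or pGIPZ+KC7F2. POLE2 reached it in 7, which were the pGIPZ and pGIPZ+KC7F2 libraries and shFOXA1 1. MCM10, E2F2 and POLE2 passed the filter only through groups where they were high, so their inclusion is not independent of the falls given below. Libraries pGIPZ 1, pGIPZ+KC7F2 1 and pGIPZ+KC7F2 3 had more signal in short than in long genes, by 0.34 to 0.47 on the log2 scale, while the other 15 lay between -0.19 and 0.13. Most main counts against a group that holds them are given below with and without these 3. Without them pGIPZ+KC7F2 has 1 library, assumed to vary like the other groups. The values of all 49 genes in all libraries are plotted in the heat map.

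**Figure D1:**
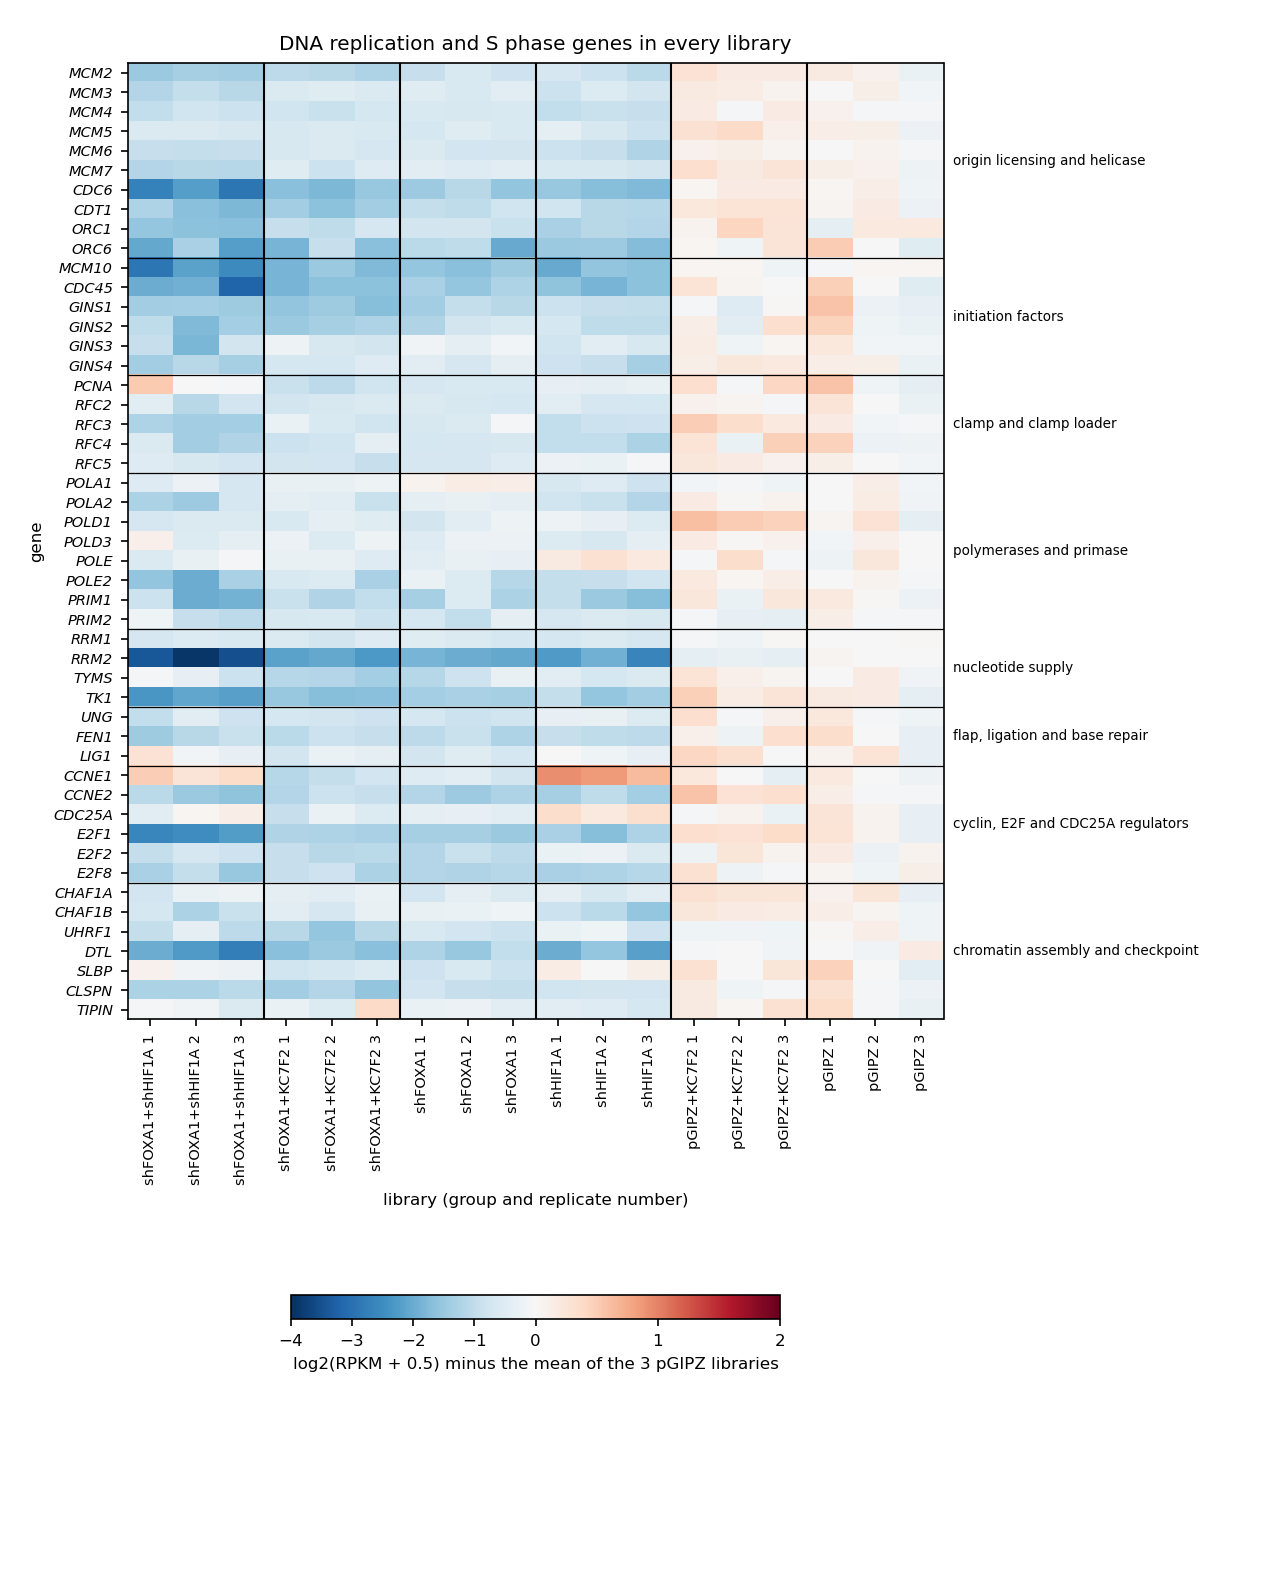
Level of each of the 49 genes (rows, by role) in each of the 18 libraries (columns), as log2(RPKM + 0.5) minus the mean of the 3 pGIPZ libraries. The 12 libraries with an shRNA to FOXA1, to HIF1A or to both are blue (lower) in most rows, the 3 pGIPZ+KC7F2 libraries stay near the pGIPZ libraries, and the CCNE1 row is red (higher) in the 3 shHIF1A libraries.

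Promoter sequence was examined because E2F factors bind a known motif near the start of many of these genes. The 180 bases before the transcript start, on the coding strand, are shown for 5 members of different roles that recur in the results: CDC6 loads the helicase, PCNA is the clamp, RRM2 is the small subunit of ribonucleotide reductase, E2F1 is an activating E2F, and UHRF1 carries DNA methylation over to new strands. Capitals mark E2F motifs, spelled TTCCCGC or TTGGCGC or TTCGCGC or TTGCCGC, and the CCAAT box, on either strand. The sequences are from RefSeq on GRCh38.p14, at chr17:40287699-40287878 (+) for CDC6, chr20:5126623-5126802 (-) for PCNA, chr2:10122559-10122738 (+) for RRM2, chr20:33686386-33686565 (-) for E2F1 and chr19:4909321-4909500 (+) for UHRF1.
CDC6: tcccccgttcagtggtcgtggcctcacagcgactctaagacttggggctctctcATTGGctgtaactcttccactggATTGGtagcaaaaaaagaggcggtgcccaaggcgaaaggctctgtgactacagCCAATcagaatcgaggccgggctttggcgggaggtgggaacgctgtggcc
PCNA: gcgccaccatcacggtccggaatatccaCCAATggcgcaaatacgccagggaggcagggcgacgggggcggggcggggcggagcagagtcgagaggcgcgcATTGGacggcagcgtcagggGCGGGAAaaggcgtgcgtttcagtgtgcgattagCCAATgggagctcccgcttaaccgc
RRM2: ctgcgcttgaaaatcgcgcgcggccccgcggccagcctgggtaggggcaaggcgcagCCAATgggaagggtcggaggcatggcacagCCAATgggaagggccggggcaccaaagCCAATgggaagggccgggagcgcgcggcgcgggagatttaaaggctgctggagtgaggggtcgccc
E2F1: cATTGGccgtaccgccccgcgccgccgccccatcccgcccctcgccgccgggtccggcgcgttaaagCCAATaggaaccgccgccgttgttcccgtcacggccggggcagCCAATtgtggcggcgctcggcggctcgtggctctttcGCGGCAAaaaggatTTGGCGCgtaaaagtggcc
UHRF1: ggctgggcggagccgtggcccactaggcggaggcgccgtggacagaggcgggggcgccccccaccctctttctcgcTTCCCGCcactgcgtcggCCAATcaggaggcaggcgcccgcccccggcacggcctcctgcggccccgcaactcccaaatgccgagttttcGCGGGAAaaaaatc

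E2F1 and UHRF1 each held 2 E2F matches in these bases and PCNA held 1. CDC6 and RRM2 held none of the spellings searched, though CDC6 had 1 shortly after its start. Only the spellings given above were searched, so a gene without a match may hold the motif in another form. RRM2 had 3 CCAAT boxes in a row, and CDC6, PCNA and E2F1 also had 3 each. Over the window from 250 bases before to 50 after the first listed start, 43 of 49 members had a sequence, and 32 of them (74.4%) held an E2F motif on either strand, against 20.8% of 9254 tested genes and 13.1% of 27305 promoters in all. A CCAAT box stood in 25 members (58.1%), against 37.4% of tested genes. The hypoxia response core (ACGTG or GCGTG) stood in 29 (67.4%), against 64% of tested genes, and a forkhead motif (TGTTTAC or TGTTTGC) in 1 (2.33%), against 4.86%. The cell cycle homology region (TTTGAA or TTCGAA), which marks many G2 and M phase genes, stood in 2 (4.65%), against 10.6%. A match is not a measured binding site, and an ATTGG followed by CGC would count both as a CCAAT box and as an E2F motif. MCM4, MCM5, GINS4, POLD3, CCNE2 and E2F8 were not examined for motifs.

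The fall of these genes with FOXA1 knockdown was broad, with calls in every role class. In shFOXA1 against pGIPZ cells, 38 of 48 tested members were called lower and none higher at a Benjamini-Hochberg adjusted p below 0.05 (limma over all 12900 genes), beside 14.6% of all tested genes called lower and 9.52% called higher. The median log2 change of the members was -0.68, against -0.09 for all tested genes. Of the 48, 13 were called lower at least 2-fold, beside 2.51% of all genes. In 43 of the 48 the shFOXA1 libraries all lay below the pGIPZ libraries, beside 20.9% of all genes. With median-ratio scaling, 36 members were lower and none higher, beside 1477 lower and 1535 higher among all 12900 genes. Leaving out the 3 libraries with high short-gene signal, 30 members were called lower, beside 1347 lower and 1002 higher among all 12900 genes. Of the 38, 25 were called in each of 17 other settings of the fit, and RFC4, POLD1 and PCNA lost their call most often, in 9, 8 and 7 of them.

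Origin licensing genes were all called lower in shFOXA1 cells (10 of 10, median log2 change -0.74). CDC6 was at 2.60, 3.49 and 2.34 RPKM in shFOXA1 libraries, against 8.27, 8.88 and 7.08 RPKM in pGIPZ libraries, with a log2 change of -1.38 ± 0.17 (SE, adjusted p = 1.2e-05). The highest shFOXA1 library was thus below the lowest pGIPZ library by a wide gap. ORC6, a subunit of the origin recognition complex, changed by -1.37 ± 0.32 and CDT1 by -0.91 ± 0.15. MCM2, a helicase subunit, was at 10.0, 12.7 and 10.6 RPKM in shFOXA1 libraries, against 22.2, 20.7 and 16.1 RPKM in pGIPZ libraries, and its groups did not overlap (-0.79 ± 0.13, adjusted p = 2.0e-04). The 6 helicase subunits MCM2 to MCM7 moved together within a narrow range, from -0.48 for MCM7 to -0.79 for MCM2.

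Of 6 initiation factors, 5 were called lower. MCM10, which helps the loaded helicase open DNA, was at 0.771, 0.648 and 0.892 RPKM in shFOXA1 libraries, against 3.02, 3.28 and 3.28 RPKM in pGIPZ libraries (-1.54 ± 0.19, adjusted p = 2.0e-05). It passed the filter only through pGIPZ and pGIPZ+KC7F2 libraries. CDC45, the helicase cofactor, changed by -1.36 ± 0.28. Within the 4-subunit GINS complex the estimates were uneven, with -1.16 ± 0.20 for GINS1 and -0.20 ± 0.23 for GINS3, which was not called.

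In the clamp and clamp loader class, 4 of 5 were called lower, and RFC5, a clamp loader subunit, had the smallest p (-0.62 ± 0.10, adjusted p = 2.0e-04). PCNA was at 31.1, 32.7 and 32.4 RPKM in shFOXA1 libraries, against 74.5, 44.1 and 38.4 RPKM in pGIPZ libraries (-0.64 ± 0.20, adjusted p = 0.028). The groups did not overlap, but library pGIPZ 1 was far above the other 2, and the call was lost without it and also without any 1 of the 3 shFOXA1 libraries. PCNA has 3 named pseudogenes in GENCODE 29, and the sources used here do not say how reads shared with them were counted.

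The polymerases were the class with the smallest median change (-0.41), and 3 of 8 were called lower, all 3 at primase or polymerase delta. PRIM1, the catalytic primase subunit, changed by -1.05 ± 0.28 (adjusted p = 0.011), PRIM2 by -0.69 ± 0.20 and POLD1 by -0.45 ± 0.16 (adjusted p = 0.045), the smallest called change of the list. POLA1, the catalytic subunit of polymerase alpha that extends the primer, had the smallest change of all, at 4.11, 4.34 and 4.27 RPKM in shFOXA1 libraries, against 3.83, 4.27 and 3.53 RPKM in pGIPZ libraries (0.12 ± 0.12, adjusted p = 0.52). POLE2, a subunit of polymerase epsilon, was at 1.14, 0.842 and 0.398 RPKM in shFOXA1 libraries, against 1.45, 1.55 and 1.40 RPKM in pGIPZ libraries, and was not called (-0.65 ± 0.25, adjusted p = 0.071). Its spread in shFOXA1 libraries was wide and its read numbers were small.

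Nucleotide supply held the largest change of the list. RRM2 was at 4.99, 4.58 and 4.39 RPKM in shFOXA1 libraries, against 20.5, 19.3 and 19.2 RPKM in pGIPZ libraries, with a log2 change of -1.97 ± 0.16 (adjusted p = 9.7e-08). Its partner RRM1, the large subunit, changed by -0.59 ± 0.09. TK1, the salvage kinase for thymidine, changed by -1.33 ± 0.15. TYMS, which makes dTMP, was at 3.12, 3.93 and 5.98 RPKM in shFOXA1 libraries, against 7.28, 8.34 and 6.68 RPKM in pGIPZ libraries (-0.75 ± 0.20, adjusted p = 0.010). TYMS shares 967 exon bases with ENOSF1 on the opposite strand, and the sources used here do not say whether counting used the strand. All 4 genes of this class were called lower.

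The lagging strand and base repair enzymes were called lower as well (3 of 3), led by FEN1, the flap nuclease, at -1.05 ± 0.17. UNG, which removes uracil from DNA, changed by -0.79 ± 0.14, and LIG1, the ligase that joins lagging strand fragments, by -0.65 ± 0.19.

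Of 5 tested regulators, 4 were called lower. E2F1 was at 3.17, 3.15 and 2.79 RPKM in shFOXA1 libraries, against 10.7, 9.14 and 6.79 RPKM in pGIPZ libraries (-1.38 ± 0.15, adjusted p = 4.0e-06). CCNE2, a cyclin E that partners CDK2 at S phase entry, was at 1.86, 1.44 and 1.77 RPKM in shFOXA1 libraries, against 5.39, 4.53 and 4.69 RPKM in pGIPZ libraries (-1.30 ± 0.15). The other cyclin E gene, CCNE1, was at 4.87, 5.05 and 4.07 RPKM in shFOXA1 libraries, against 8.23, 7.18 and 6.12 RPKM in pGIPZ libraries (-0.57 ± 0.15, adjusted p = 0.010). The libraries of the groups were apart for both genes, and the difference between their changes was not tested. CCNE2 shares 1629 exon bases with INTS8 on the opposite strand, which strandless counting could not separate.

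E2F8, a repressive E2F that is itself made late in the wave, was at 0.131, 0.124 and 0.146 RPKM in shFOXA1 libraries, against 0.9754, 0.761 and 1.05 RPKM in pGIPZ libraries. It reached 1 RPKM in 2 libraries and stood just outside the filter, so it has no test. E2F2 stood just inside it with 4 such libraries, all of them pGIPZ or pGIPZ+KC7F2. E2F2, an activating E2F, averaged 0.300 ± 0.0767 RPKM in shFOXA1 cells and 1.16 ± 0.230 RPKM in pGIPZ cells (-1.04 ± 0.20, adjusted p = 8.6e-04).

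Of the 7 chromatin and checkpoint genes, 5 were called lower. DTL, which targets CDT1 for destruction in S phase, changed by -1.24 ± 0.21 (adjusted p = 3.5e-04). UHRF1 was at 1.35, 1.13 and 1.04 RPKM in shFOXA1 libraries, against 2.35, 2.57 and 2.00 RPKM in pGIPZ libraries (-0.74 ± 0.20). SLBP, which binds the stem loop of replication-dependent histone mRNAs, was at 15.9, 18.6 and 15.4 RPKM in shFOXA1 libraries, against 39.4, 28.1 and 21.1 RPKM in pGIPZ libraries (-0.77 ± 0.17), again with pGIPZ 1 highest. TIPIN, a fork protection factor, was at 8.83, 9.08 and 7.85 RPKM in shFOXA1 libraries, against 13.9, 10.3 and 8.56 RPKM in pGIPZ libraries, and these overlapped (-0.31 ± 0.21, adjusted p = 0.31). CHAF1B, a subunit of the histone chaperone CAF-1, was not called either (-0.24 ± 0.17).

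**Figure D2:**
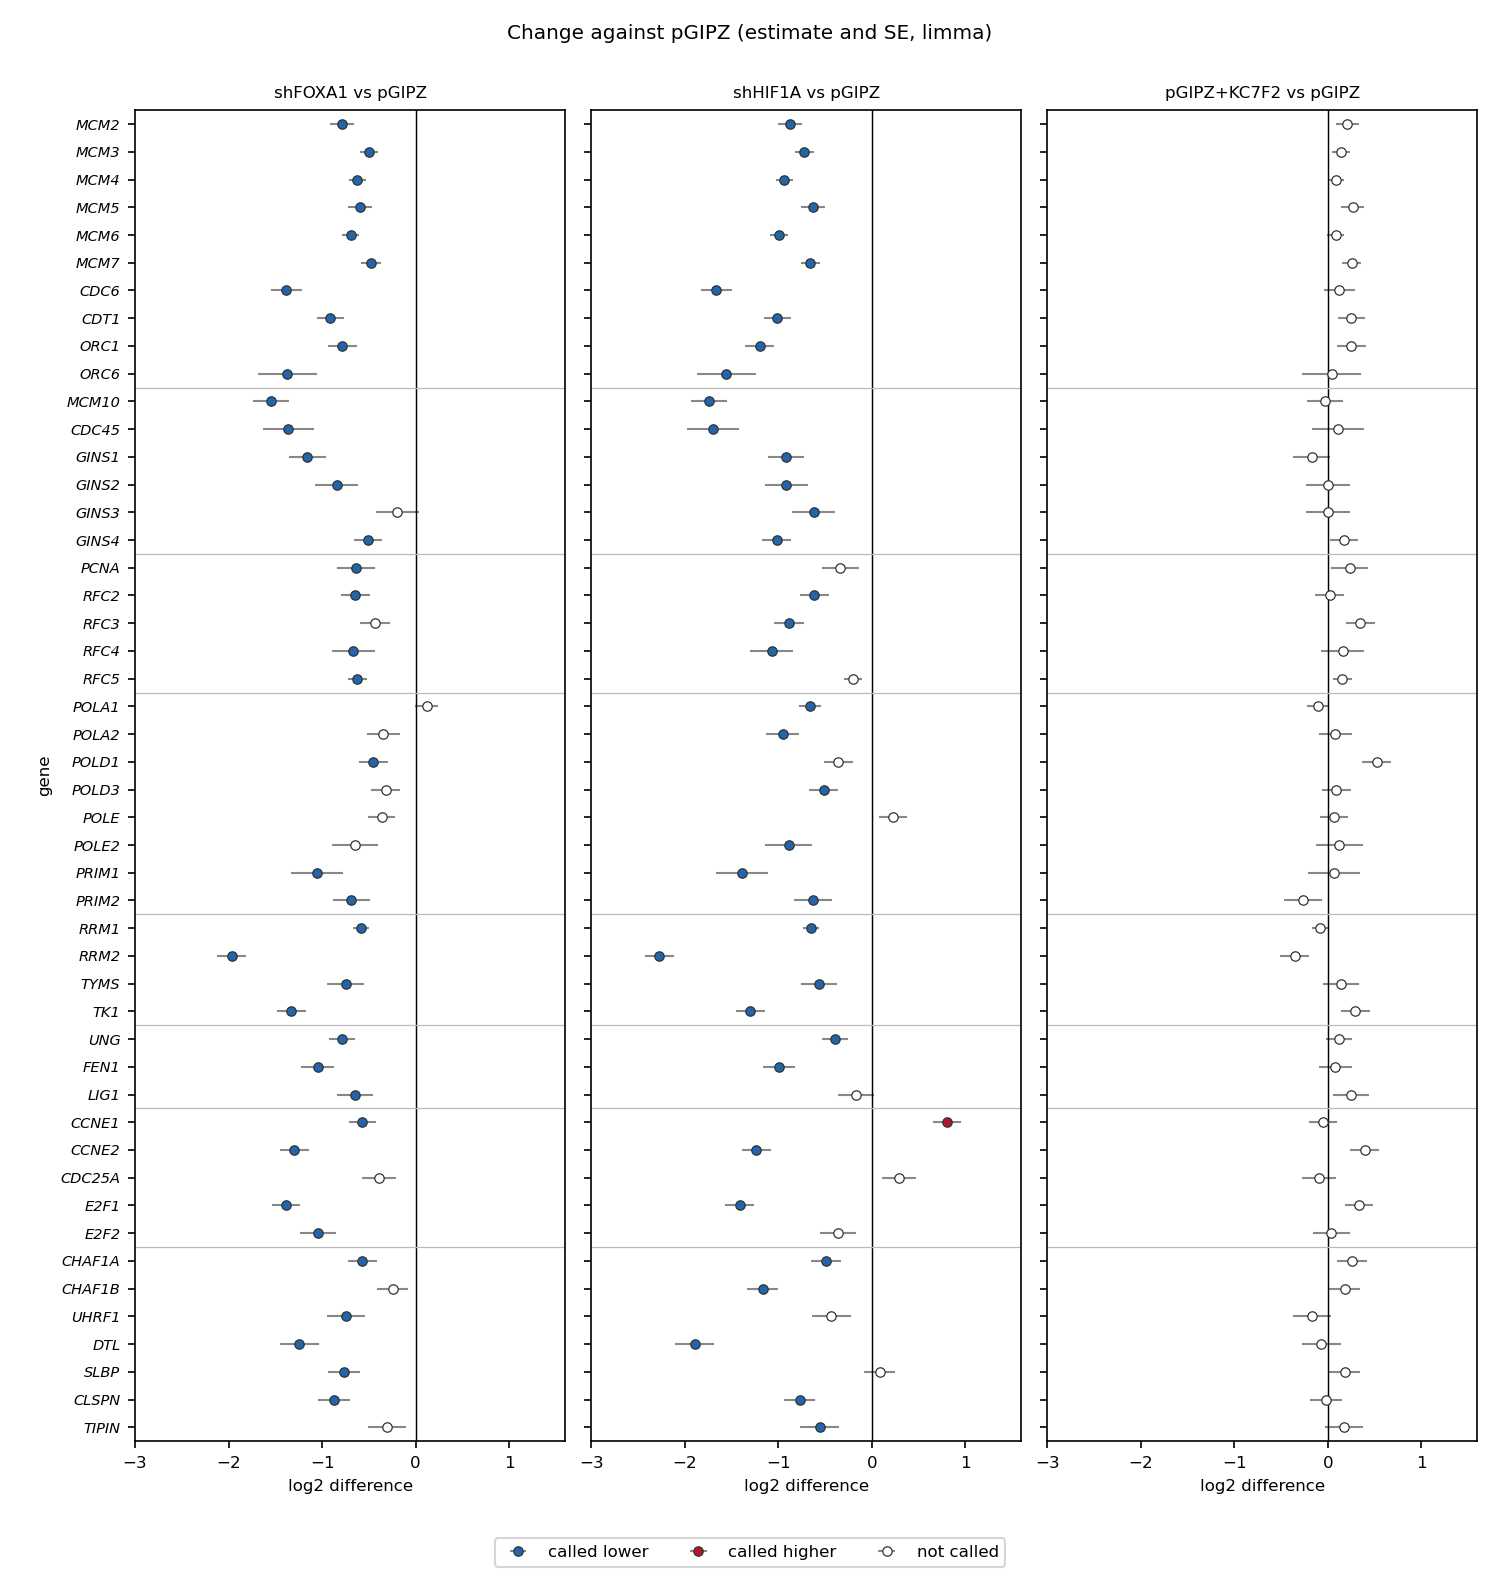
Log2 difference from pGIPZ cells (x axis, estimate with SE as bars) for the 48 tested members (rows, by role) in shFOXA1, shHIF1A and pGIPZ+KC7F2 cells. Filled points were called at an adjusted p below 0.05: 38 lower with shFOXA1, 38 lower and 1 higher (CCNE1) with shHIF1A, and none with pGIPZ+KC7F2, whose points lie near 0.

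Knockdown of HIF1A gave a fall of similar breadth with different exceptions. In shHIF1A against pGIPZ cells, 38 of 48 members were called lower and 1 higher, beside 16.1% of all tested genes called lower, 25.9% called higher and 42% called in either direction. The members' median log2 change was -0.82, against 0.07 for all tested genes. At least 2-fold lower calls numbered 15, beside 3.72% of all genes. With median-ratio scaling 40 members were lower and 1 higher, beside 2576 lower and 2805 higher among all genes. Leaving out the 3 libraries with high short-gene signal, 32 were lower and 1 higher, beside 1735 lower and 3225 higher among all genes. This comparison and that of shFOXA1 share the pGIPZ libraries, so likeness between them is partly built in.

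RRM2 again had the largest change, at 3.72, 4.82 and 2.72 RPKM in shHIF1A libraries, against 20.5, 19.3 and 19.2 RPKM in pGIPZ libraries (-2.27 ± 0.16, adjusted p = 1.9e-08). DTL was next, at -1.89 ± 0.21, and MCM10 was at 0.420, 0.731 and 0.692 RPKM in shHIF1A libraries, against 3.02, 3.28 and 3.28 RPKM in pGIPZ libraries (-1.74 ± 0.19). All 10 licensing genes and all 6 initiation factors were called lower. CDC6 was at 2.47, 2.12 and 2.03 RPKM in shHIF1A libraries (-1.66 ± 0.17), MCM6 changed by -0.99 ± 0.09 with the smallest p of its class (adjusted p = 4.6e-07), and MCM2 was at 11.9, 10.4 and 9.01 RPKM in shHIF1A libraries (-0.88 ± 0.13). GINS3, not called with shFOXA1, was called here at -0.62 ± 0.23, a call that 8 of 16 other settings did not keep.

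The regulators split with HIF1A knockdown. CCNE1 rose: it was at 14.1, 13.3 and 11.3 RPKM in shHIF1A libraries, against 8.23, 7.18 and 6.12 RPKM in pGIPZ libraries (0.81 ± 0.15, adjusted p = 3.9e-04), with no overlap. CCNE2 did the opposite, at 1.61, 2.15 and 1.61 RPKM in shHIF1A libraries, against 5.39, 4.53 and 4.69 RPKM in pGIPZ libraries (-1.23 ± 0.15). E2F1 was at 3.26, 2.33 and 3.42 RPKM in shHIF1A libraries (-1.41 ± 0.15, adjusted p = 2.1e-06). E2F2 (-0.36 ± 0.20) and CDC25A, the phosphatase that activates cyclin E kinase (0.29 ± 0.18), were not called. E2F8 was at 0.0837, 0.110 and 0.142 RPKM in shHIF1A libraries, a range that overlaps the one in shFOXA1 libraries.

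Polymerase genes were called lower in 6 of 8 in shHIF1A cells. POLA1, which was not called with shFOXA1, changed by -0.66 ± 0.12 (adjusted p = 2.9e-04), and POLA2, its regulatory subunit, by -0.95 ± 0.18. POLE2 was at 0.512, 0.540 and 0.636 RPKM in shHIF1A libraries, all below the pGIPZ libraries (-0.89 ± 0.25, adjusted p = 0.0092). It passed the filter only through the pGIPZ and pGIPZ+KC7F2 libraries, where it was high. POLE, the catalytic subunit of polymerase epsilon, was not called (0.23 ± 0.15). RFC3, a clamp loader subunit, changed by -0.89 ± 0.16.

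The members without a call in shHIF1A cells were PCNA, RFC5, POLD1, POLE, LIG1, CDC25A, E2F2, UHRF1 and SLBP. PCNA was at 40.2, 38.5 and 40.3 RPKM in shHIF1A libraries, within the range of the pGIPZ libraries (-0.33 ± 0.20, adjusted p = 0.19). SLBP was at 31.8, 28.6 and 30.9 RPKM, also within that range, and had the smallest change of the uncalled members (0.09 ± 0.17, adjusted p = 0.72). UHRF1 was at 1.82, 1.97 and 1.06 RPKM in shHIF1A libraries, all below the pGIPZ libraries (-0.43 ± 0.20, adjusted p = 0.10). TYMS was called, at 5.40, 4.37 and 4.83 RPKM in shHIF1A libraries (-0.56 ± 0.20, adjusted p = 0.030), as was TIPIN, at 7.72, 7.32 and 6.41 RPKM (-0.56 ± 0.21, adjusted p = 0.040). UNG had the smallest called change (-0.39 ± 0.14), and FEN1 led its class at -0.99 ± 0.17. The calls of UNG, TYMS and TIPIN were lost in 7, 6 and 9 of 17 other settings.

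KC7F2 on its own gave no call among the members. In pGIPZ+KC7F2 against pGIPZ cells, 0 of 48 were called by limma. Among all tested genes 0.992% were called lower, 1.05% higher and 2.04% in either direction. At an unadjusted limma p below 0.05 stood 6 of 48 members, beside 1537 of 12900 tested genes, a similar share. With median-ratio scaling 0 members were called, beside 194 lower and 100 higher among all genes. Leaving out the 3 libraries with high short-gene signal it was also 0, beside 33 lower and 34 higher. The members' median log2 change was 0.11, against 0.07 for all genes. The 95% intervals of the 48 changes lay between -0.69 and 0.85, so changes up to those sizes lie within the error. RRM2 was at 15.2, 15.8 and 14.7 RPKM in pGIPZ+KC7F2 libraries, all below the pGIPZ libraries (-0.36 ± 0.16, adjusted p = 0.36). POLD1 had the smallest p (0.52 ± 0.16, adjusted p = 0.12), with 13.1, 12.3 and 11.99 RPKM in pGIPZ+KC7F2 libraries, against 8.91, 10.6 and 6.56 RPKM in pGIPZ libraries. E2F1 was at 11.2, 10.8 and 11.5 RPKM (0.33 ± 0.15), CCNE2 at 7.44, 6.04 and 6.24 RPKM (0.40 ± 0.15), and CDC6 at 8.27, 9.10 and 9.02 RPKM (0.12 ± 0.17). In the other classes the smallest p belonged to MCM7 (0.25 ± 0.10), RFC3 (0.35 ± 0.16), CHAF1A, the large subunit of CAF-1 (0.26 ± 0.16), LIG1 (0.25 ± 0.19) and GINS4 (0.18 ± 0.15), none called. GINS3 had the smallest change, of 0.00 ± 0.23. Of the 49 genes, 35 had their highest group mean in pGIPZ+KC7F2 cells and 10 in pGIPZ cells. The shares over all genes were not computed. Estimates below 0 in pGIPZ+KC7F2 against pGIPZ cells were found for 11 of 48 members, beside 37.0% of all tested genes.

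The shRNA and the inhibitor of HIF1A were also set against each other. In shHIF1A against pGIPZ+KC7F2 cells, 40 members were lower and CCNE1 was higher, beside 19.6% and 23% of all tested genes. Of the 40, 22 were lower at least 2-fold, beside 4.29% of all genes. RRM2 changed by -1.92 ± 0.16, DTL by -1.82 ± 0.21, CDC45 by -1.81 ± 0.28 and CCNE1 by 0.86 ± 0.15. By class, E2F1 (-1.74 ± 0.15), MCM10 (-1.71 ± 0.19), RFC3 (-1.23 ± 0.16), MCM6 (-1.08 ± 0.09), FEN1 (-1.07 ± 0.17) and POLA2 (-1.03 ± 0.18) had the smallest p, and RFC5 the smallest called change (-0.36 ± 0.10). SLBP had the smallest change among the members not called (-0.09 ± 0.17). These 2 groups also differ in virus, and the KC7F2 libraries include 2 with more signal in short genes. Leaving out those and pGIPZ 1 left 1 pGIPZ+KC7F2 library, and fewer members and fewer of all genes were then called lower.

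FOXA1 knockdown was measured a second time within KC7F2-treated cells, in libraries that the first comparison did not use. In shFOXA1+KC7F2 against pGIPZ+KC7F2 cells, 43 of 48 members were called lower and none higher, beside 24.1% and 8.88% of all tested genes and 32.9% in either direction. At least 2-fold lower calls numbered 22, beside 3.21% of all genes. All genes had a median of -0.15 here, and with median-ratio scaling, which takes it to 0.00, 41 members were lower and none higher, beside 1824 lower and 1876 higher among all genes. Leaving out the 3 libraries with high short-gene signal left 1 pGIPZ+KC7F2 library, and fewer members and fewer of all genes were then called lower. Of the 38 members lower with shFOXA1 alone, 37 (97.4%) were among these 43, and they made up 86% of the 43. PRIM2 was the exception, and CHAF1B, POLA2, POLD3, POLE, POLE2 and RFC3 were called here and not there. With 43 of 48 called lower here, most of any 38 members would be among them. The overlap over all tested genes was not computed. The log2 changes of the 48 members in the 2 comparisons had a Pearson correlation of 0.872, given as a description across genes of one pathway. TK1 had the largest change (-1.92 ± 0.15, adjusted p = 1.4e-07), then CDC45 (-1.82 ± 0.28) and RRM2, at 4.08, 4.39 and 3.56 RPKM in shFOXA1+KC7F2 libraries, against 15.2, 15.8 and 14.7 RPKM in pGIPZ+KC7F2 libraries (-1.81 ± 0.16). CDT1 changed by -1.72 ± 0.15, CLSPN, the adaptor of the checkpoint kinase CHEK1, by -1.36 ± 0.17, and POLD3, with the smallest called change, by -0.41 ± 0.15. E2F1 (-1.58 ± 0.15), MCM10 (-1.67 ± 0.19), POLD1 (-1.01 ± 0.16), RFC5 (-0.96 ± 0.10) and UNG (-0.88 ± 0.14) had the smallest p of their classes. POLA1 was not called (-0.16 ± 0.12). PCNA was at 26.7, 24.1 and 28.96 RPKM in shFOXA1+KC7F2 libraries, against 63.2, 49.03 and 66.7 RPKM in pGIPZ+KC7F2 libraries (-1.14 ± 0.20), and this call held in every setting.

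Adding KC7F2 to FOXA1 knockdown gave 1 call among the members. In shFOXA1+KC7F2 against shFOXA1 cells, 0 members were higher and 1 lower, beside 1.71% and 2.37% of all tested genes. That gene was CDT1, the licensing factor, at 3.37, 2.74 and 3.33 RPKM in shFOXA1+KC7F2 libraries, against 4.76, 4.53 and 5.35 RPKM in shFOXA1 libraries (-0.56 ± 0.15, adjusted p = 0.041). The CDT1 call was lost in 8 of 16 other settings, including each one that left out a library of either group. TYMS was at 3.09, 3.02 and 2.60 RPKM in shFOXA1+KC7F2 libraries, against 3.12, 3.93 and 5.98 RPKM in shFOXA1 libraries (-0.47 ± 0.20, adjusted p = 0.24). The smallest p of the other classes belonged to POLA1 (-0.39 ± 0.12), CLSPN (-0.51 ± 0.17), CCNE1 (-0.38 ± 0.15), GINS2 (-0.51 ± 0.23), RFC5 (-0.19 ± 0.10) and LIG1 (0.18 ± 0.19), none called, and POLD3 had the smallest change (0.00 ± 0.15). The interaction between shFOXA1 and KC7F2 called 0 members, beside 0.0775% of all tested genes. At an unadjusted limma p below 0.05 it had 8 of 48 members, beside 872 of 12900 tested genes. Its smallest p were those of CDT1 (-0.81 ± 0.21, adjusted p = 0.20), TK1 (-0.59 ± 0.22), POLD1 (-0.56 ± 0.22), RFC5 (-0.34 ± 0.14), CLSPN (-0.49 ± 0.24), CCNE1 (-0.33 ± 0.21), GINS2 (-0.51 ± 0.33) and UNG (-0.09 ± 0.20) in their classes, and TIPIN had the smallest estimate (-0.01 ± 0.29). Against pGIPZ cells, shFOXA1+KC7F2 cells had 40 members lower and none higher, beside 17.4% and 10.1% of all tested genes and 27.4% in either direction, with RRM2 at -2.16 ± 0.16, CDC45 at -1.71 ± 0.28 and MCM10 at -1.70 ± 0.19. With median-ratio scaling 39 were lower and none higher, beside 1851 lower and 1701 higher among all genes. Leaving out pGIPZ 1 with the other high short-gene libraries, 33 were lower, beside 1834 lower and 1097 higher among all genes. CDT1 (-1.47 ± 0.15), E2F1 (-1.24 ± 0.15), PRIM1 (-1.03 ± 0.28), FEN1 (-0.95 ± 0.17) and RFC5 (-0.81 ± 0.10) led their classes by p. POLD1 had the smallest called change (-0.49 ± 0.16) and TIPIN the smallest change without a call (-0.14 ± 0.21).

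**Figure D3:**
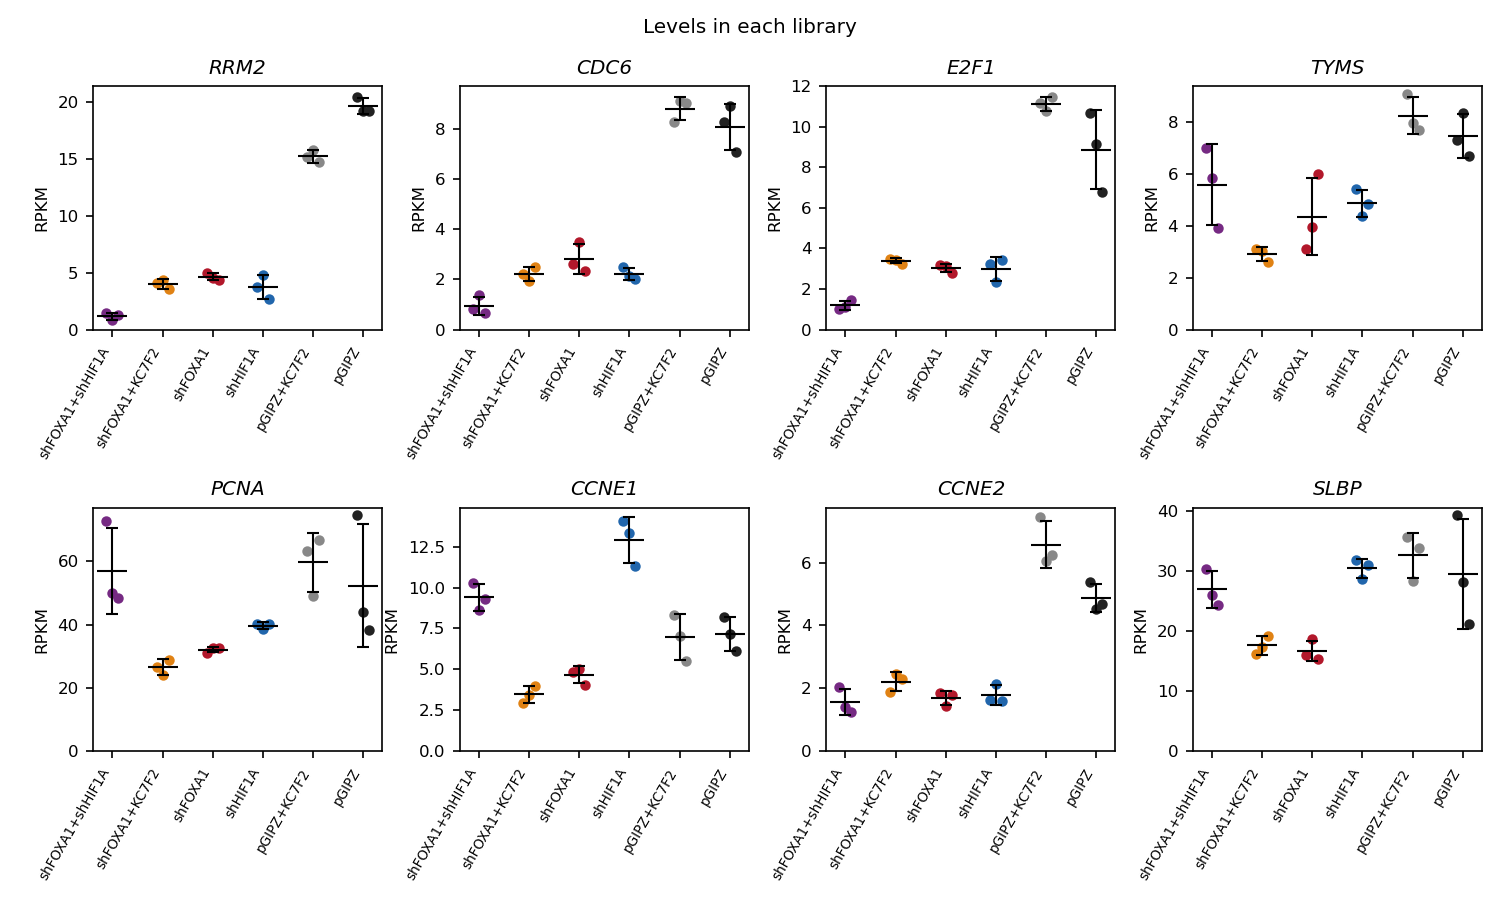
RPKM of 8 members in each library (points), with the mean and SD of each group of 3 (lines). RRM2, CDC6 and E2F1 are lowest in shFOXA1+shHIF1A libraries, CCNE1 is highest in shHIF1A libraries (11.3 to 14.1 RPKM), and PCNA and SLBP are lowest in the shFOXA1 and shFOXA1+KC7F2 libraries.

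HIF1A knockdown on top of FOXA1 knockdown gave calls in both directions. The share of members called higher was below that of all tested genes. In shFOXA1+shHIF1A against shFOXA1 cells, 20 members were called lower and 4 higher, beside 13.5% of all tested genes lower and 24% higher. The members' median log2 change was -0.30, against 0.10 for all genes. With median-ratio scaling 22 were lower and 4 higher, beside 2383 lower and 2259 higher among all genes. All 20 were among the 38 that were lower with shHIF1A against pGIPZ (100% of the 20 and 52.6% of the 38), a comparison with no library in common. With 38 of 48 called lower there, most of any 20 members would be among them. The Pearson correlation of the log2 changes across the 48 members was 0.827, again a description.

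The further falls were led by RRM2, at 1.43, 0.854 and 1.28 RPKM in shFOXA1+shHIF1A libraries, against 4.99, 4.58 and 4.39 RPKM in shFOXA1 libraries (-1.63 ± 0.16, adjusted p = 6.4e-07). CDC6 was at 0.804, 1.36 and 0.661 RPKM in shFOXA1+shHIF1A libraries, against 2.60, 3.49 and 2.34 RPKM in shFOXA1 libraries (-1.21 ± 0.17). DTL changed by -1.09 ± 0.21, and E2F1 was at 1.02, 1.14 and 1.45 RPKM in shFOXA1+shHIF1A libraries, against 3.17, 3.15 and 2.79 RPKM in shFOXA1 libraries (-1.06 ± 0.15). MCM10 was at 0, 0.339 and 0.130 RPKM in shFOXA1+shHIF1A libraries, with the 0 in the shallowest library of the study (-0.98 ± 0.19). MCM2 was at 6.65, 7.44 and 7.14 RPKM (-0.61 ± 0.13), and POLE2 at 0.158, 0 and 0.305 RPKM (-0.97 ± 0.25). RFC3 changed by -0.89 ± 0.16 and POLA1 by -0.60 ± 0.12. Of the 10 licensing genes 7 fell further, and of the 6 initiation factors 4. MCM4 had the smallest called change (-0.26 ± 0.09) and MCM5 the smallest change without a call (-0.01 ± 0.13).

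The 4 that rose were PCNA, LIG1, CCNE1 and SLBP. PCNA was at 72.6, 49.9 and 48.4 RPKM in shFOXA1+shHIF1A libraries, against 31.1, 32.7 and 32.4 RPKM in shFOXA1 libraries (0.79 ± 0.20, adjusted p = 0.0050), a call kept in each of 16 other settings. CCNE1 was at 10.2, 8.64 and 9.32 RPKM in shFOXA1+shHIF1A libraries, against 4.87, 5.05 and 4.07 RPKM in shFOXA1 libraries (0.94 ± 0.15, adjusted p = 1.1e-04). SLBP was at 30.4, 26.0 and 24.4 RPKM in shFOXA1+shHIF1A libraries, against 15.9, 18.6 and 15.4 RPKM in shFOXA1 libraries (0.67 ± 0.17, adjusted p = 0.0046). LIG1 was at 3.64, 2.60 and 2.16 RPKM in shFOXA1+shHIF1A libraries, against 1.51, 1.90 and 1.59 RPKM in shFOXA1 libraries (0.59 ± 0.19, adjusted p = 0.024), a call lost in 4 of 15 other settings, among them leaving out shFOXA1+shHIF1A 1, shFOXA1 1 or shFOXA1 3. For all 4 the libraries of the groups did not overlap. TYMS was at 6.98, 5.85 and 3.90 RPKM in shFOXA1+shHIF1A libraries and overlapped shFOXA1 (0.34 ± 0.20, adjusted p = 0.20). FOXA1 RNA itself was higher in shFOXA1+shHIF1A cells than in shFOXA1 cells (0.91 ± 0.16 on the log2 scale), and its part in these differences was not tested.

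Against the KC7F2 group, shFOXA1+shHIF1A cells had 17 members lower and 5 higher than shFOXA1+KC7F2 cells, beside 13.2% and 23.4% of all tested genes. The 5 were CCNE1 (1.33 ± 0.15), PCNA (1.06 ± 0.20), TYMS (0.81 ± 0.20), SLBP (0.60 ± 0.17) and CDC25A (0.48 ± 0.18), whose call was lost in 12 of 16 other settings. RRM2 (-1.43 ± 0.16), E2F1 (-1.20 ± 0.15), CDC6 (-0.94 ± 0.17), MCM10 (-0.82 ± 0.19) and POLA2 (-0.56 ± 0.18) were lower, with MCM6 the smallest called change (-0.29 ± 0.09). LIG1 (0.41 ± 0.19) was not called, and RRM1 had the smallest change (0.00 ± 0.09). With median-ratio scaling 20 members were lower and 4 higher, beside 2296 lower and 2324 higher among all genes.

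**Figure D4:**
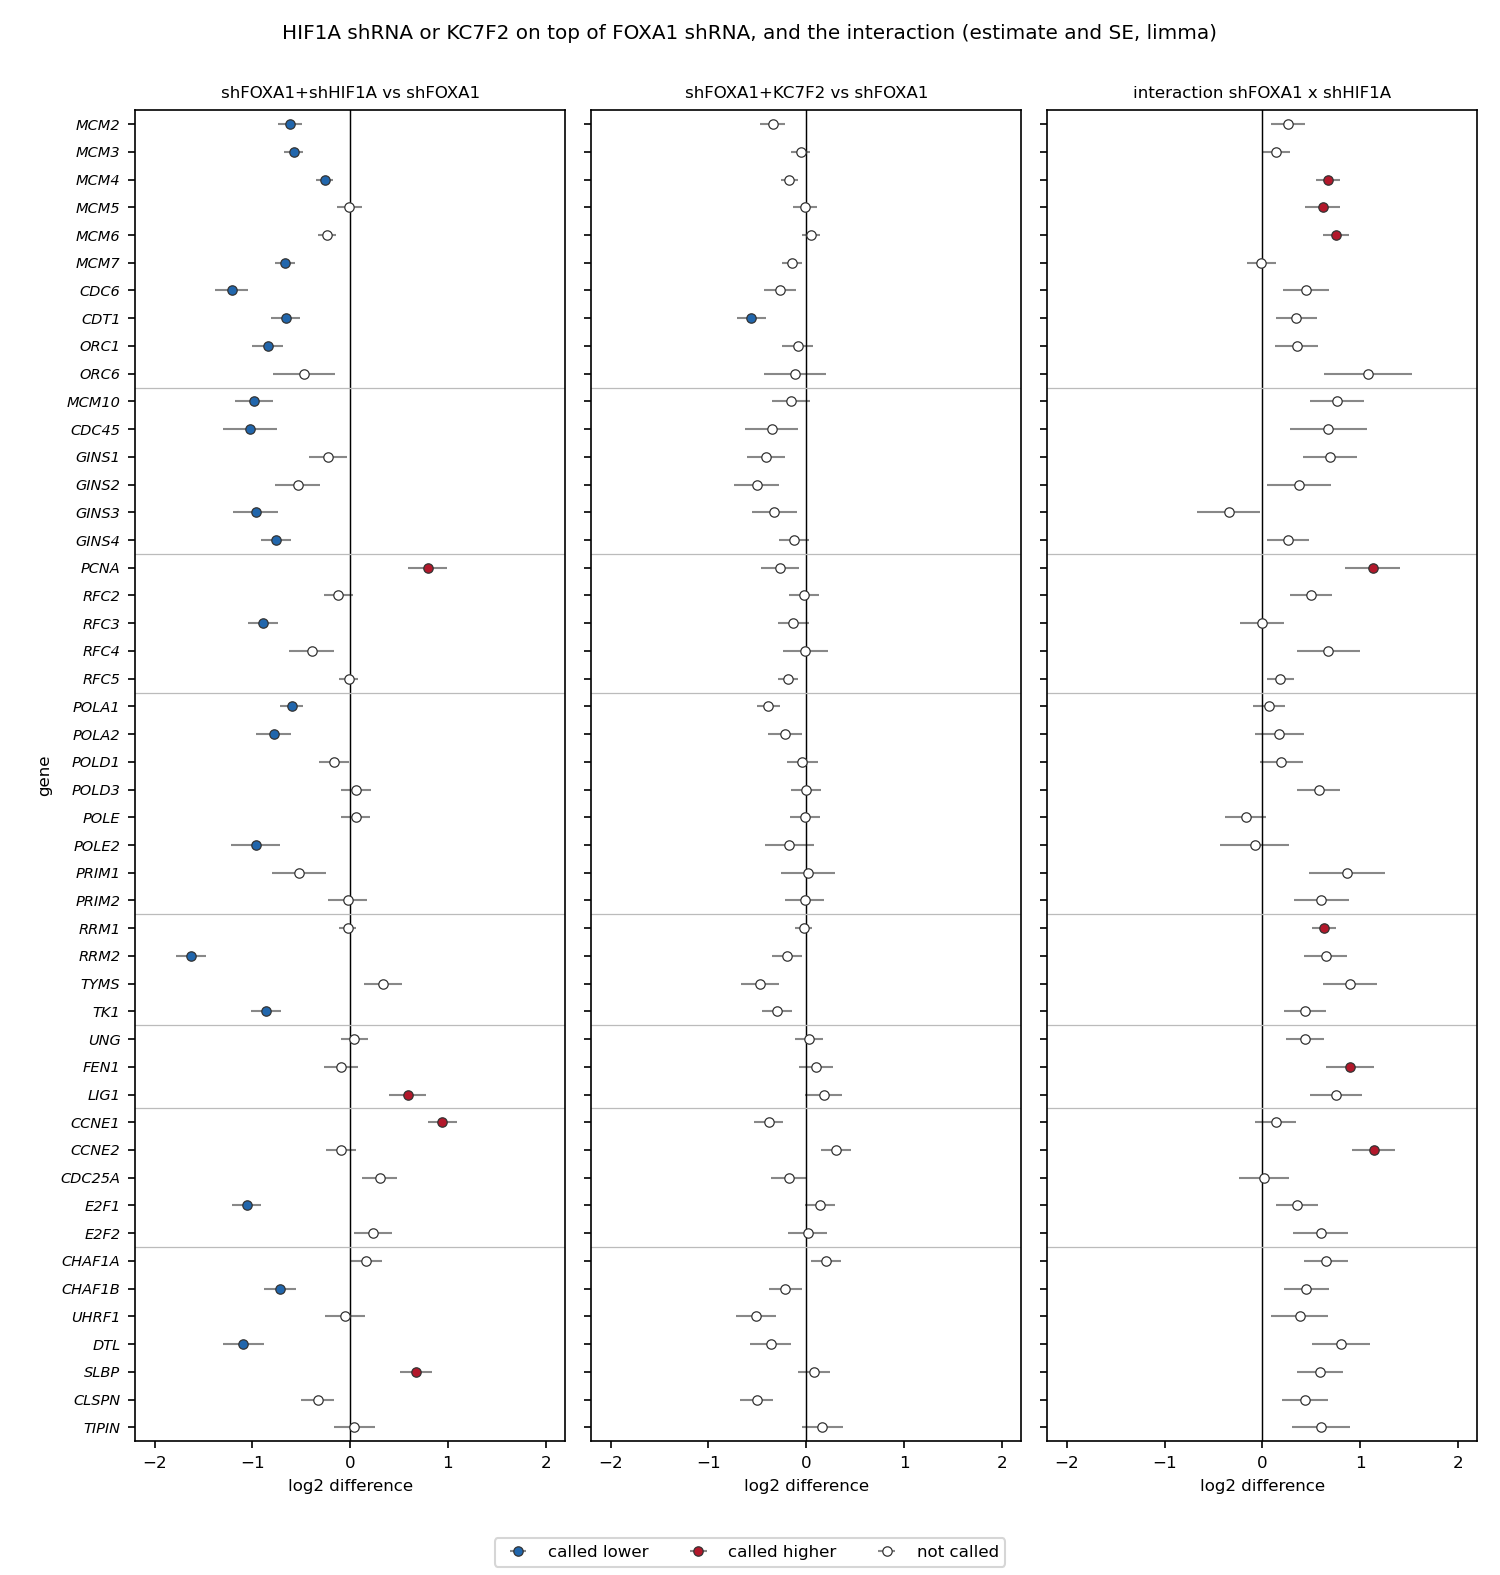
Log2 difference (x axis, estimate with SE) of the 48 tested members (rows, by role) in shFOXA1+shHIF1A against shFOXA1 cells, in shFOXA1+KC7F2 against shFOXA1 cells, and the interaction of shFOXA1 and shHIF1A. Filled points were called: 20 lower and 4 higher on the left, CDT1 alone in the middle, and 7 above 0 on the right.

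FOXA1 knockdown was also measured within HIF1A knockdown cells. In shFOXA1+shHIF1A against shHIF1A cells, 11 of 48 were called lower and none higher, beside 9.25% and 5.27% of all tested genes. These were MCM2, MCM3, MCM7, CDC6, CDT1, MCM10, RFC5, POLE, RRM2, TK1 and E2F1. RRM2 was at 1.43, 0.854 and 1.28 RPKM in shFOXA1+shHIF1A libraries, against 3.72, 4.82 and 2.72 RPKM in shHIF1A libraries (-1.32 ± 0.16). E2F1 changed by -1.03 ± 0.15, CDC6 by -0.93 ± 0.17, MCM10 by -0.78 ± 0.19, RFC5 by -0.44 ± 0.10, POLE by -0.53 ± 0.15 and MCM3, with the smallest called change, by -0.35 ± 0.10. CLSPN (-0.44 ± 0.17) and UNG (-0.35 ± 0.14) led their classes without a call, and RFC4 had the smallest change of all (0.01 ± 0.23). The count was 7 when only these 2 groups entered the fit, and CDC6, MCM7, RRM2, TK1 and E2F1 were called in every setting.

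The interaction of shFOXA1 and shHIF1A asks whether the change with both shRNAs differs from the sum of the single log2 changes. It called 7 members, all positive, beside 3.16% of all tested genes called positive and 4.45% called negative. Of 48 estimates, 43 were above 0, with a median of 0.47, against 0.03 for all genes. Over all tested genes, 46.8% of the estimates were below 0. The 48 estimates come from the same libraries, so their shared sign is not a set of separate observations. A positive value means that the members with both shRNAs were less low than that sum. The 7 were CCNE2 (1.14 ± 0.22), PCNA (1.13 ± 0.28), FEN1 (0.90 ± 0.24), MCM6 (0.75 ± 0.13), MCM4 (0.67 ± 0.12), RRM1 (0.63 ± 0.12) and MCM5 (0.62 ± 0.18). CCNE2 was at 2.03, 1.42 and 1.26 RPKM in shFOXA1+shHIF1A libraries, 1.86, 1.44 and 1.77 RPKM in shFOXA1 libraries and 1.61, 2.15 and 1.61 RPKM in shHIF1A libraries, all against 5.39, 4.53 and 4.69 RPKM in pGIPZ libraries. The 3 knockdown groups of CCNE2 thus overlapped. RRM1 was likewise at 18.7, 20.6 and 19.4 RPKM in shFOXA1+shHIF1A libraries, 21.5, 20.2 and 18.2 RPKM in shFOXA1 libraries and 18.2, 20.1 and 18.7 RPKM in shHIF1A libraries, against 30.1, 29.6 and 30.7 RPKM in pGIPZ libraries. RRM2, by contrast, had an interaction of 0.65 ± 0.22 that was not called (adjusted p = 0.091), and CDC6 one of 0.45 ± 0.24. MCM10 (0.76 ± 0.28), POLD3 (0.58 ± 0.22) and CHAF1A (0.65 ± 0.22) led their classes without a call, and RFC3 had the smallest estimate (-0.00 ± 0.22). Leaving out the 3 libraries with high short-gene signal, 5 were called, beside 329 positive and 450 negative calls among all genes. The PCNA call was lost without library shFOXA1+shHIF1A 1 and when only the 4 groups entered the fit (adjusted p up to 0.0541), and those of MCM5 and FEN1 in 13 and 12 of 23 other settings, while MCM4, MCM6, RRM1 and CCNE2 kept theirs in all 23.

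With both shRNAs against none, 39 of 48 members were lower and none higher, beside 19.5% of all tested genes lower, 22.6% higher and 42.1% in either direction, and the members' median log2 change was -1.07. RRM2 changed by -3.59 ± 0.16 (adjusted p = 8.3e-11), CDC6 by -2.60 ± 0.17, MCM10 by -2.52 ± 0.19, E2F1 by -2.44 ± 0.15 and CDC45 by -2.38 ± 0.28. DTL (-2.34 ± 0.21), POLE2 (-1.61 ± 0.25), RFC3 (-1.33 ± 0.16) and FEN1 (-1.14 ± 0.17) led their classes by p, and CHAF1A had the smallest called change (-0.41 ± 0.16). At least 2-fold lower calls numbered 25, beside 4.96% of all genes, and in 38 the shFOXA1+shHIF1A libraries all lay below the pGIPZ libraries, beside 19.9% of all genes. CCNE1 (0.37 ± 0.15, adjusted p = 0.054) and PCNA (0.16 ± 0.20, adjusted p = 0.56) had estimates above 0 and no call, and PCNA was called higher when pGIPZ 1 was left out. Leaving out all 3 libraries with high short-gene signal, 39 were lower and 2 higher, beside 2145 lower and 2874 higher among all genes. LIG1 had the smallest change (-0.06 ± 0.19). Of the 49 genes, 25 had their lowest group mean in shFOXA1+shHIF1A cells, 10 in shFOXA1+KC7F2, 9 in shHIF1A and 5 in shFOXA1 cells. The shares over all genes were not computed. The highest mean lay in shHIF1A cells for CCNE1, CDC25A and POLE and in shFOXA1 cells for POLA1.

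The median changes of members with and without an E2F match in the promoter window are given as a description. In shFOXA1 against pGIPZ cells the median log2 change was -0.66 for the 32 members with a match and -1.05 for the 11 without, and in shHIF1A against pGIPZ cells it was -0.74 and -0.99. RRM2, with no match at its first listed start, had the largest change in both. The difference between the 2 sets was not tested, and the sets depend on the spellings searched and on the start used. With any listed start, 35 of 43 members held a match.

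Related genes outside the list were taken from fixed lists that were also chosen with earlier results known. Their counts stand beside 14.6% of all tested genes lower and 9.52% higher in shFOXA1 against pGIPZ cells, and 16.1% lower and 25.9% higher in shHIF1A against pGIPZ cells. Of 31 other replisome and origin genes, 15 were lower and none higher in shFOXA1 against pGIPZ cells, and 15 lower and 1 higher in shHIF1A against pGIPZ cells. GMNN, which holds CDT1 inactive, averaged 4.2 RPKM in shFOXA1 and 14.6 RPKM in pGIPZ cells (-1.72 ± 0.23), and CDC7, the kinase that fires origins, 1.53 RPKM in shHIF1A and 5.02 RPKM in pGIPZ cells (-1.45 ± 0.16). Of 23 other nucleotide supply genes, 14 were lower and 2 higher with each shRNA. RRM2B, the p53-responsive relative of RRM2, was at 55.2, 70.6 and 61.4 RPKM in shHIF1A libraries, against 26.9, 26.7 and 28.7 RPKM in pGIPZ libraries (1.16 ± 0.10), while RRM2 fell. IMPDH1, of guanine nucleotide synthesis, also rose in shHIF1A cells (1.58 ± 0.12).

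Of 21 tested RB, E2F, cyclin and CDK genes, 8 were lower and none higher with shFOXA1, and 9 were lower and 4 higher with shHIF1A, where the share called higher was below the 25.9% of all tested genes. CCNA2, the S phase cyclin A, changed by -1.50 ± 0.17 with shFOXA1 and -1.43 ± 0.17 with shHIF1A, both against pGIPZ. CCND1, the G1 cyclin D, was at 183, 183 and 176 RPKM in shHIF1A libraries, against 71.9, 88.1 and 77.6 RPKM in pGIPZ libraries (1.19 ± 0.09). Of 8 CDK inhibitors, 2 were higher and 2 lower with shFOXA1, and 3 higher and 1 lower with shHIF1A, counts of few genes that were not tested against the shares of all genes. CDKN1A, the inhibitor p21, was at 376, 355 and 367 RPKM in shFOXA1 libraries and at 957, 908 and 817 RPKM in shHIF1A libraries, against 236, 208 and 188 RPKM in pGIPZ libraries. Its log2 changes were 0.80 ± 0.11 and 2.09 ± 0.11. CDKN2B, the inhibitor p15, changed by 2.02 ± 0.15 with shFOXA1 and 1.82 ± 0.15 with shHIF1A. CDKN1B, the inhibitor p27, was the other gene called higher with shHIF1A (0.51 ± 0.13). CDKN3, a phosphatase that acts on CDKs, was called lower with shFOXA1 (-1.48 ± 0.34) and with shHIF1A (-1.60 ± 0.34), and CDKN2C, the inhibitor p18, with shFOXA1 (-0.59 ± 0.20). Of 13 checkpoint genes, 6 were lower with shFOXA1, and 7 lower and 2 higher with shHIF1A, where WEE1, the kinase that restrains CDKs, changed by -1.73 ± 0.12. Of 12 histone chaperone and maintenance methylation genes, 5 were lower and 1 higher with shFOXA1, and 6 lower and 3 higher with shHIF1A, where the share called higher was near the 25.9% of all genes. DNMT1, the methyltransferase that UHRF1 recruits, changed by -0.57 ± 0.12 with shFOXA1 and -0.85 ± 0.12 with shHIF1A.

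All 28 mitosis genes were lower with each shRNA, with median log2 changes of -1.47 in shFOXA1 and -1.51 in shHIF1A cells against pGIPZ cells, against -0.68 and -0.82 for the replication genes. TOP2A, the topoisomerase of chromosome segregation, averaged 2.88 RPKM in shFOXA1 and 9.68 RPKM in pGIPZ cells (-1.60 ± 0.13). The shares are set side by side in the bar chart of calls by list. They describe lists of different make-up, and the difference between the lists was not tested.

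**Figure D5:**
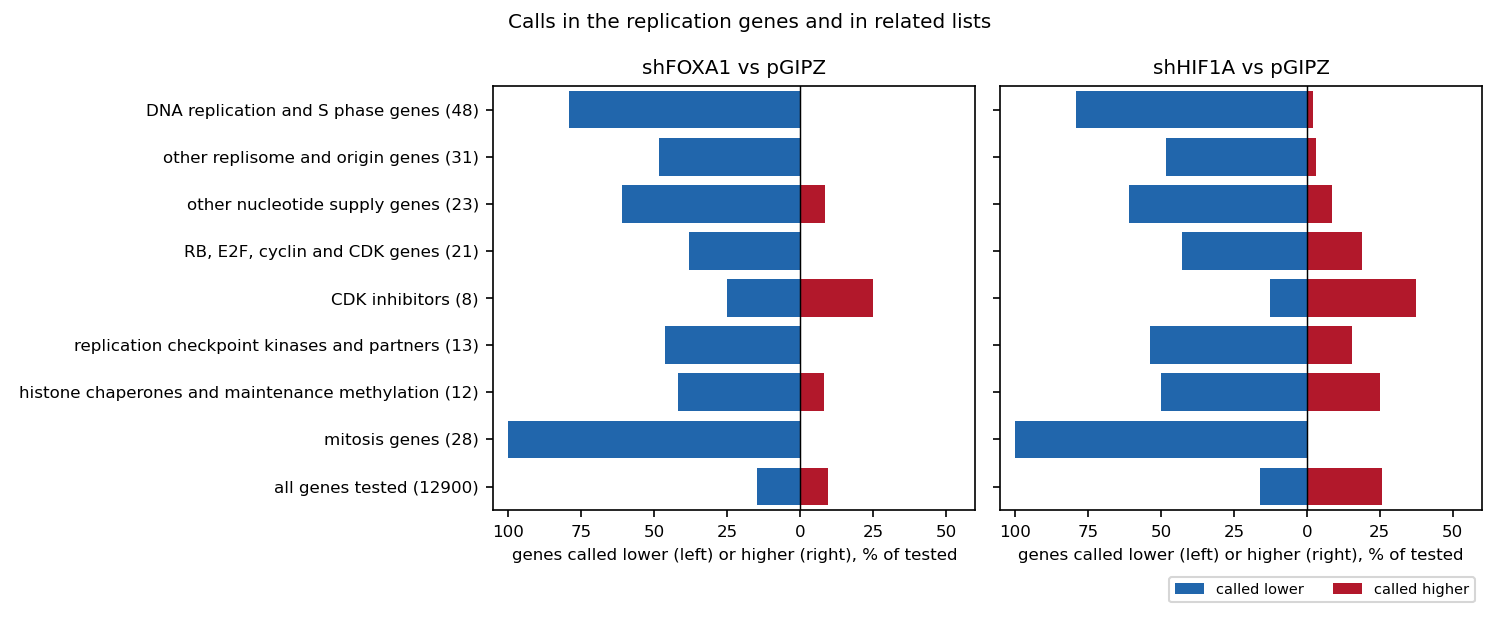
Share of the tested genes of each list (number tested in parentheses) called lower (left, blue) or higher (right, red) in shFOXA1 and in shHIF1A against pGIPZ cells. The replication genes (38 of 48 lower) and the mitosis genes (28 of 28 lower) are mostly lower, and the bottom row gives the shares of all tested genes (14.6% lower and 9.52% higher with shFOXA1, 16.1% and 25.9% with shHIF1A). With shFOXA1 the nucleotide supply, CDK inhibitor and chaperone lists also have genes called higher, and with shHIF1A every list but the mitosis genes does.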

How the data were processed

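The deposited table holds RPKM values per gene for 18 libraries. The submitters' processing notes name STAR and hg38, and the authors' counting program, annotation and strand setting are unknown here. Of 26475 lines, 32 had no value and were left out. Symbols of 23808 genes, all 49 members among them, matched GENCODE 29. Sequencing depth was recovered from genes of up to 200 nt, whose low values are multiples of 1 read (74.6 to 86.0% whole within 2%).

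Values were tested as log2(RPKM + 0.5), with no further scaling, for genes with at least 1 RPKM in 3 libraries, so fold changes of low genes are understated. The 6 groups were fitted together in limma (version 3.58.1, R 4.3.3; eBayes with a mean-variance trend, two-sided), and p-values were Benjamini-Hochberg adjusted over all tested genes within each of 13 contrasts, which share libraries, and not across them. A gene was called at an adjusted p below 0.05. The fit was tested on data simulated for shFOXA1 against pGIPZ, with a spread that was set and not taken from these libraries. It recovered 20 of 67 changes of 1.5-fold, 57 of 67 of 2-fold and 64 of 66 of 4-fold. Of 148 calls, 7 were false. Many smaller changes can thus go without a call. Errors beside log2 changes are SE, those beside levels SD. Alternatives were other pseudocounts, filters, scalings, fits and left-out libraries.

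The members, role classes, other lists and naming rule were chosen with earlier results of these data known. In each contrast the rule names the member with the smallest p of each role class, the 3 largest called changes, called members against the majority, and the smallest called and uncalled changes. It also gives 14 members by library, not repeated in every contrast. Other members and genes are named after their values were seen. Promoters came from RefSeq (GRCh38.p14, 250 bases before to 50 after the first listed start) and were searched on both strands. The labels give replicate numbers but no shared culture or day, so the fit has no replicate term. Correlations over 0.1 numbered 9 of 45 for libraries of the same number and 9 of 90 for other numbers. Their medians were -0.008 and 0.004.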

Additional observations from a re-analysis of the deposited data

Results flagged for a closer look

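For 7 of 48 members, beside 7.61% of all tested genes, the effect of FOXA1 knockdown was called different between HIF1A knockdown and control cells. The call is by the interaction term of the limma fit (FOXA1 effect in shHIF1A cells minus that in pGIPZ cells, log2 scale). MCM4, MCM6, RRM1 and CCNE2 kept the call in every other setting, and MCM5, FEN1 and PCNA lost it in some. The differences were 0.67 for MCM4, 0.62 for MCM5, 0.75 for MCM6, 1.13 for PCNA, 0.63 for RRM1, 0.90 for FEN1 and 1.14 for CCNE2. In MCM4 the change was 0.05 ± 0.09 in shFOXA1+shHIF1A against shHIF1A cells and -0.62 ± 0.09 in shFOXA1 against pGIPZ cells. In PCNA it was 0.49 ± 0.20 and -0.64 ± 0.20, and in CCNE2 -0.16 ± 0.15 and -1.30 ± 0.15. FOXA1 RNA differed less between the groups compared in HIF1A knockdown cells, with a log2 change of -0.89 ± 0.16 there and -1.47 ± 0.16 in control cells. Its part in the 7 differences was not tested. The interaction with KC7F2 called none of the 48.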

How the results depend on the processing

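The counts of called members were recomputed in 29 other settings. No called change reversed its sign, and 301 of 5727 recomputed values of uncalled changes did. With the replicate block, 38 members were called for shFOXA1 against pGIPZ, as without it, and no other count moved by over 1.5 times. In shFOXA1+KC7F2 against shFOXA1 the single call became 0 with no filter and with only the groups compared, and 2 with quantile normalisation and with the length and GC trend removed. Fitting only the groups compared gave 7 in place of 11 calls for shFOXA1+shHIF1A against shHIF1A and 4 in place of 7 for the interaction of shFOXA1 and shHIF1A. A filter of 5 RPKM gave 14 in place of 22 for shFOXA1+shHIF1A against shFOXA1+KC7F2, as fewer members were tested. The causes of the other moves were not tested. Leaving out 1 library at a time gave 29 to 39 calls for shFOXA1 and 33 to 40 for shHIF1A against pGIPZ, 0 to 0 for KC7F2, 23 to 25 for shFOXA1+shHIF1A and 0 to 0 for shFOXA1+KC7F2 against shFOXA1, 8 to 12 for shFOXA1+shHIF1A against shHIF1A, 40 to 42 for shFOXA1+KC7F2 and 39 to 41 for shHIF1A against pGIPZ+KC7F2, 38 to 40 for shFOXA1+shHIF1A and 34 to 43 for shFOXA1+KC7F2 against pGIPZ, 17 to 23 for shFOXA1+shHIF1A against shFOXA1+KC7F2, and 5 to 10 and 0 to 0 for the interactions with shHIF1A and with KC7F2. Calls among all 12900 genes moved as well when 1 library was left out. Lower calls ran from 1330 to 2697 for shFOXA1 and from 1730 to 2309 for shHIF1A against pGIPZ. The member ranges of the other contrasts are given without those of all genes. At depths of 3.26 to 12.1 M reads, changes of genes near 1 RPKM rest on few reads.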

Other observations

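In shFOXA1+shHIF1A against shFOXA1 cells, 4 of 8 CDK inhibitors were called higher and 1 lower, beside 24% of all tested genes higher and 13.5% lower. CDKN1A was at 1319, 1059 and 1188 RPKM in shFOXA1+shHIF1A libraries, against 376, 355 and 367 RPKM in shFOXA1 libraries (1.69 ± 0.11, limma adjusted p = 1.2e-08). CDKN1B, the inhibitor p27, was at 54.9, 44.8 and 40.8 RPKM in shFOXA1+shHIF1A libraries, against 17.9, 21.9 and 23.5 RPKM in shFOXA1 libraries (1.13 ± 0.13). CDKN2B changed by 0.56 ± 0.15, CDKN2C by 0.56 ± 0.20 and CDKN3, the one called lower, by -1.15 ± 0.34. In the same comparison RRM2B was higher (1.03 ± 0.10), as was GMNN (0.83 on the log2 scale), while PKMYT1, a kinase that restrains CDK1, was lower (-1.42 ± 0.16). CDK2, the partner of cyclin E, was at 16.4, 13.7 and 13.2 RPKM in shFOXA1+shHIF1A libraries, against 9.88, 9.47 and 9.41 RPKM in shFOXA1 libraries (0.56 ± 0.11). Of the 28 mitosis genes, 22 were lower and none higher, beside the same shares of all genes.

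KC7F2 on top of FOXA1 knockdown gave 2 of 8 CDK inhibitors called lower and none higher, beside 2.37% and 1.71% of all tested genes. CDKN1A was at 269, 248 and 246 RPKM in shFOXA1+KC7F2 libraries, against 376, 355 and 367 RPKM in shFOXA1 libraries (-0.52 ± 0.11, limma adjusted p = 0.013), and CDKN2B changed by -0.70 ± 0.15 (adjusted p = 0.015). Of the 28 mitosis genes 0 were called in that comparison by limma.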
